A study of Mus musculus with 16 samples.

Results

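The 10 genes described here are markers of the crypt base stem cell and targets of Wnt signalling in the intestine: *Lgr5*, *Olfm4*, *Ascl2*, *Smoc2*, *Axin2*, *Rnf43*, *Znrf3*, *Slc12a2*, *Ephb2* and *Sox9*. They were chosen by name from a table of 23299 genes, each gene being the sum of its annotated transcripts, and all 10 of them were among the 19042 genes with enough signal to be tested. RNA came from the terminal ileum of C57BL/6 mice. Wild-type (WT) littermates and mice lacking *Tas1r3* (KO), which encodes a subunit shared by the sweet and umami taste receptors, received for 10 weeks either a normal diet with plain water (ND) or a Western diet (WD), a high-fat diet given with a sucrose solution to drink. The labels give 4 mice in each of the 4 groups, with 2 males and 2 females.

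The knockout was a whole-body deletion on a line backcrossed to C57BL/6, so no cell type was singled out, and the tissue was bulk ileum. Of the 16 deposited columns, 13 libraries were used: 4 from WT-ND, 2 from KO-ND, 4 from WT-WD and 3 from KO-WD. The KO-ND columns labelled female were weighted means of the KO-ND male columns and were left out, and the related female columns of KO-WD were averaged and counted as 1 library. Thus KO-ND held males only. The libraries held an implied 7003268 to 12384197 reads (median 9219858), and *Tas1r3* was at 1.54 to 6.66 scaled RPKM in the WT libraries and at no more than 0.00529 in the KO libraries.

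In the intestine, Wnt ligands and R-spondins from the cells around the crypt stabilise beta-catenin in the stem cells at its base. Beta-catenin then joins TCF factors on DNA and raises a set of target genes, some of which feed back to dampen the signal. Cells that leave the crypt base lose this programme as they divide, differentiate and move towards the villus.

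The level of each gene is given as scaled RPKM, which is RPKM (reads scaled by transcript length and library total) divided by a factor that sets the libraries to a common scale. Per kilobase, *Olfm4*, a secreted glycoprotein of crypt base cells, was the most abundant of the 10, at 117 ± 51.6 scaled RPKM (SD, n = 13 libraries). *Axin2* (23.6 ± 4.14), *Smoc2* (23.5 ± 6.55) and *Slc12a2* (17.7 ± 6.03) came next; neither *Axin2* and *Smoc2* nor *Smoc2* and *Slc12a2* differed beyond the spread between libraries. *Rnf43* (8.69 ± 2.36), *Sox9* (7.47 ± 2.21), *Ephb2* (7.37 ± 2.53) and *Ascl2* (4.91 ± 1.47) followed below *Slc12a2*, and within these 4 no neighbours differed beyond their spread. *Lgr5*, the R-spondin receptor that defines the crypt base columnar stem cell, was at 3.82 ± 1.51 scaled RPKM and exceeded *Znrf3*, the lowest at 1.78 ± 0.403, in all 13 libraries. In reads, the genes differed in precision, from a median of 76 reads a library for *Ascl2* (lowest 35) to 3260 for *Olfm4*.

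**Figure D1:**
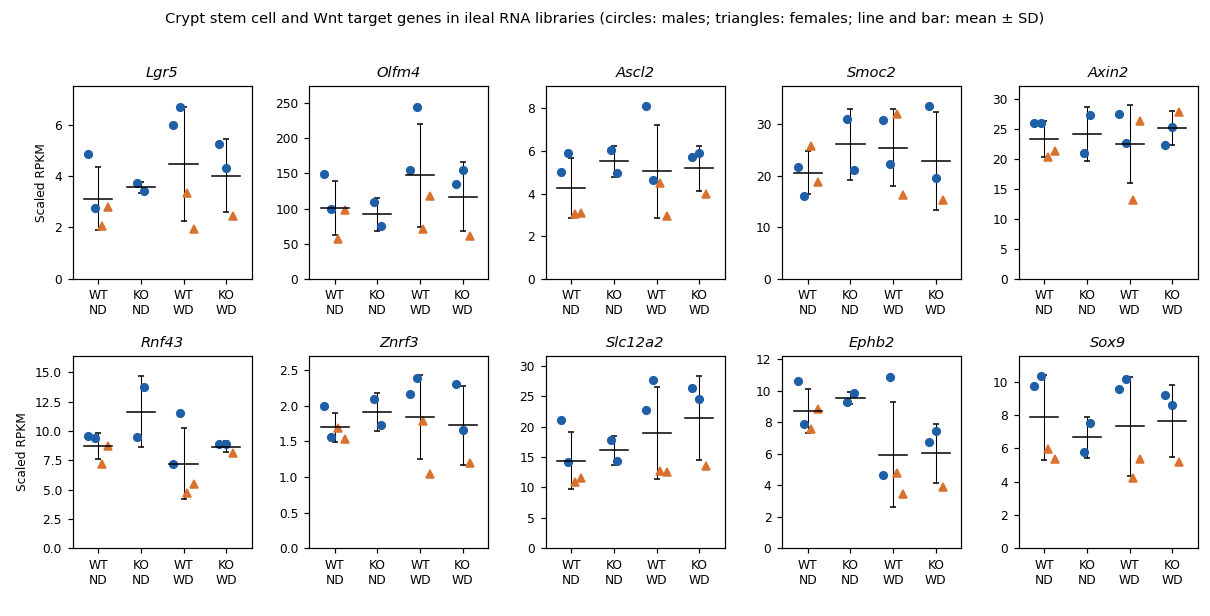
Scaled RPKM of each of the 10 genes (vertical axes, each starting at 0) in the 13 libraries by genotype and diet; circles are males, triangles females, and the line and bar give the group mean and SD. The groups overlap for nearly every gene, whereas the triangles tend to lie below the circles, as for *Slc12a2*, where the 5 female libraries reach 13.5 at most and the 8 male libraries start at 14.2.

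None of the 10 genes passed the test for a diet or genotype difference. In the 5 contrasts fitted with limma over all 4 groups (WD against ND in each genotype, KO against WT on each diet, and the interaction of genotype and diet), 0 of 10 met the rule of a 2-fold change with an adjusted p (Benjamini-Hochberg) below 0.01, and 0 of 10 that of an adjusted p under 0.05. In addition, 0 of 10 had an unadjusted p under 0.05, against 2969, 1075, 919, 499 and 273 of all tested genes in the order of the contrasts named above. The background was as sparse. Of the 19042 genes tested, the stricter rule called 0.00525% for WD against ND in WT, 0% for WD against ND in KO, 0% for KO-ND against WT-ND, 0.0105% for KO-WD against WT-WD and 0% for the interaction. At an adjusted p under 0.05 the shares were 0.063%, 0.00525%, 0.00525%, 0.0263% and 0%. The intervals were wide: that of *Olfm4* for WD against ND in WT ran from -0.40 to 1.38 on the log2 scale.

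The largest diet difference was that of *Ephb2*, a receptor tyrosine kinase that positions cells along the crypt. In WT mice on the ND it was at 10.6 and 7.87 scaled RPKM in the males and at 7.55 and 8.85 in the females, and on the WD at 4.67 and 10.9 in the males and at 4.74 and 3.47 in the females. In KO mice it was at 9.27 and 9.82 on the ND and at 6.74, 7.42 and 3.9 on the WD, the last being the female library. In WT, 3 of the 4 WT-WD libraries thus lay below every WT-ND library and 1 male lay above them all, while in KO mice the diets did not overlap. The log2 fold change was -0.63 ± 0.30 (SE; 95% interval -1.28 to 0.02) in WT and -0.67 ± 0.39 (-1.51 to 0.17) in KO. The limma adjusted p was 0.335 and 0.914, and the two-sided exact permutation p was 0.143 and 0.2, where the smallest possible values were 0.0286 and 0.1. The high male, WT-WD M2, drew 34.5% of its *Ephb2* RPKM from the transcript *Ephb2-203* (at most 3.89% elsewhere) and 15.6% from the retained intron *Ephb2-205*. The latter is 599 bases long and held 13.1 of 614 implied reads of the gene in that library. In WT-WD M2 *Ephb2-201* was at 3.73 RPKM as deposited, against 3.48, 3.32 and 1.89 in the other WT-WD libraries. Such splits between transcripts are estimates (below).

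*Rnf43*, a membrane ubiquitin ligase that removes Wnt receptors and is itself a Wnt target, was the other gene whose KO libraries did not overlap between the diets. It was at 9.52 and 13.8 scaled RPKM in KO-ND and at 8.93, 8.90 and 8.10 in KO-WD, a log2 fold change of -0.39 ± 0.31 (limma adjusted p = 0.97). Its WT libraries overlapped, at 9.54, 9.39, 7.17 and 8.71 on the ND and 7.16, 11.5, 4.74 and 5.48 on the WD (log2 fold change -0.32 ± 0.24). These 2 of 10 genes compare with 20.9% of all tested genes that did not overlap between KO-WD and KO-ND. In the other contrasts 0 of 10 genes were free of overlap, against 10.6% of all genes for WD against ND in WT, 22.4% for KO-ND against WT-ND and 2.88% for KO-WD against WT-WD. The *Rnf43* value of 11.5 was that of WT-WD M2, where *Rnf43-207* made up 31.9% and the retained intron *Rnf43-206* 20% of the gene's RPKM. The transcript *Rnf43-207* also made up 22.5% in KO-ND M2 and 30.1% in KO-WD M1. It is a processed transcript of 364 bases, and RPKM gives each read on so short a transcript more weight. It held 17.1 of 395 implied reads of the gene in WT-WD M2, 11.2 of 413 in KO-ND M2 and 8.84 of 231 in KO-WD M1.

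For the other genes the diet difference in WT mice was smaller in size than that of *Ephb2*. The log2 fold change for WD against ND was 0.39 ± 0.36 for *Lgr5*, 0.49 ± 0.41 for *Olfm4*, 0.19 ± 0.29 for *Ascl2*, the transcription factor that maintains the stem cell state, and 0.27 ± 0.28 for *Smoc2*, a matricellular protein. For *Slc12a2*, the basolateral sodium, potassium and chloride cotransporter of crypt cells, it was 0.35 ± 0.31. The feedback inhibitors *Axin2*, a scaffold of the complex that destroys beta-catenin, and *Znrf3*, the ubiquitin ligase related to *Rnf43*, were at -0.10 ± 0.22 and 0.06 ± 0.24. *Sox9*, a transcription factor of crypt progenitors and Paneth cells, was at -0.13 ± 0.31. Without WT-WD F1, *Axin2* was at 0.13. In all, 6 of 10 genes were higher and 4 lower on the WD in WT (median 0.13, against 0.03 over all tested genes), and 5 were higher and 5 lower in KO (median -0.01, against -0.01). KO-ND held males only, and with sex in the fit the KO median became 0.13 with 6 of 10 genes higher. In that fit *Slc12a2* was at 0.63 ± 0.21 (limma unadjusted p = 0.0127, adjusted p = 0.426) and *Sox9* at 0.44 ± 0.19 (limma unadjusted p = 0.0452, adjusted p = 0.538).

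For markers of other cells, none of which passed an adjusted p under 0.05, the values for diet in WT mice were as follows. All 7 of 7 epithelium markers were lower on the WD (median -0.71; summed level 3504 to 5373 scaled RPKM against 4879 to 7783 on the ND), as were 5 of 5 adipocyte markers (median -2.05). All 6 of 6 T cell markers (median 0.37) and 7 of 7 fibroblast markers (median 0.36) were higher. The summed B and plasma cell markers were at 276 to 658 scaled RPKM on the WD against 85.6 to 278 on the ND, ranges that overlap slightly. The part of these cells in the values of the 10 genes was not tested, and the other marker lists are not given here for this contrast.

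A limit of the diet contrasts lies in the deposited values. The ND columns summed to 817011 to 819916 RPKM and the WD columns to 542371 to 672933, and very small values carried more than 3 digits in nearly all cases in the ND columns (99.8% or more) and in at most 0.0477% of cases in the WD columns, so diet and the way the columns were made cannot be told apart. Without scaling, the median log2 fold change of all tested genes for WD against ND was -0.38 in WT and -0.35 in KO, and with that shift 9 of 10 genes were lower on the WD in WT and 10 of 10 in KO, with 0 of 10 called.

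Between genotypes, in the fit without sex, the largest difference among the 10 genes was smaller in size than that of *Ephb2* between the diets. For KO-ND against WT-ND the log2 fold changes ran from -0.18 (*Sox9*) to 0.39 (*Rnf43*), with 8 of 10 genes higher and a median of 0.17 against 0.02 over all tested genes. For KO-WD against WT-WD they ran from -0.30 (*Olfm4*, which was at 0.16 without KO-WD F) to 0.32 (*Rnf43*), with 6 of 10 higher and a median of 0.10 against -0.04. In the same 2 comparisons 10 of 10 enterocyte markers were lower in KO (median -1.12 and -0.98) and 7 of 7 Paneth cell markers higher (median 1.12 and 1.38), none past an adjusted p under 0.05, and their part in these values was not tested. These marker values come from the fit without sex, and KO-ND held males only, so genotype and sex are mixed in them. Over both diets enterocyte markers were lower and Paneth cell markers higher in males, although on the ND alone the enterocyte markers were split (below). The lowest limma adjusted p was 0.891 and 1, and the interaction of genotype and diet ran from -0.51 (*Smoc2*) to 0.28 (*Sox9*) with a lowest unadjusted p of 0.287 from limma. With sex in the fit the KO-ND against WT-ND median became -0.10 with 3 of 10 genes higher. In that fit *Sox9* was at -0.60 ± 0.19 (limma unadjusted p = 0.00893, adjusted p = 0.995). Its interaction of genotype and diet was then 0.56 ± 0.24 (limma unadjusted p = 0.0398, adjusted p = 0.99999), with 1 of 10 genes at an unadjusted p under 0.05 for the interaction. The share of all tested genes at that limit in the fit with sex is not given here, so this count cannot be set against the background.

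**Figure D2:**
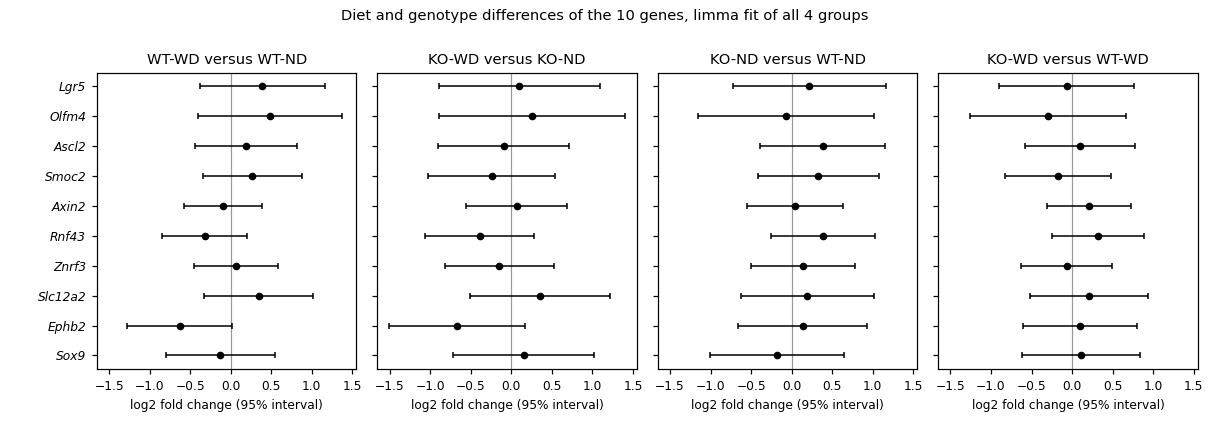
Log2 fold change (horizontal axis) with its 95% interval for each of the 10 genes in the 4 comparisons of diet and genotype. Every interval includes 0; the estimate farthest from 0 is that of *Ephb2* on the WD, at -0.63 in WT and -0.67 in KO.

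The same libraries differed by sex. This comparison was added when the values had been seen; it sets the 8 male against the 5 female libraries with group in the limma fit, and the estimate of the difference comes from WT-ND, WT-WD and KO-WD, which hold both sexes, while the KO-ND libraries enter the scaling and the spread. All 10 genes had a positive male minus female difference (median 0.59 on the log2 scale, against -0.01 over all tested genes). *Sox9* and *Slc12a2* passed an adjusted p under 0.05 and were higher in males. Over all tested genes 0.509% passed in either direction and 0.257% were higher in males. Of the 10 genes, 7 were higher in males at an unadjusted p under 0.05, against 8.44% of all tested genes, and 5 of 10 were higher in males with no overlap between the sexes within each of the 3 groups, against 4.44%. The 10 genes vary together (below) and are not 10 independent measurements.

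*Slc12a2* was at 21.1 and 14.2 scaled RPKM in WT-ND males and 10.9 and 11.5 in WT-ND females, at 22.7 and 27.7 against 12.7 and 12.5 on the WD, and at 26.3 and 24.6 against 13.5 in KO-WD. The KO-ND males were at 17.8 and 14.4, so that all 8 male libraries exceeded all 5 female libraries. The difference was 0.81 ± 0.14 on the log2 scale (95% interval 0.51 to 1.12, limma adjusted p = 0.035).

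*Sox9* was at 9.77 and 10.3 scaled RPKM in WT-ND males and 6.00 and 5.37 in WT-ND females, at 9.55 and 10.2 against 4.25 and 5.35 in WT-WD, and at 9.19 and 8.59 against 5.18 in KO-WD. The sexes did not overlap within any of these groups, but the KO-ND males, at 5.81 and 7.54, were lower than the other males, and 1 of them fell within the range of the females. The difference was 0.84 ± 0.13 (0.56 to 1.11, limma adjusted p = 0.0234).

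*Olfm4*, *Lgr5* and *Ascl2* did not pass the adjusted test in this fit over both diets. *Olfm4* was at 149 and 99.2 scaled RPKM in WT-ND males against 56.3 and 97.9 in females, at 155 and 245 against 70.9 and 118 in WT-WD, and at 135 and 155 against 61.2 in KO-WD, with 109 and 75.6 in KO-ND males. Males were higher in each group that held both sexes, by 0.98 ± 0.22 in the fit (limma adjusted p = 0.0588). *Lgr5* was at 4.88 and 2.77 against 2.06 and 2.80 in WT-ND, at 5.98 and 6.69 against 3.34 and 1.93 in WT-WD, and at 5.26 and 4.34 against 2.47 in KO-WD, with 3.73 and 3.41 in KO-ND males. Only in WT-ND did a male lie below a female, and the difference was 0.84 ± 0.20 (limma adjusted p = 0.0634). *Ascl2* ran from 4.62 to 8.11 in the males and from 2.93 to 4.52 in the females, a difference of 0.65 ± 0.17 (limma adjusted p = 0.0789).

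*Ephb2* (0.53 ± 0.22), *Rnf43* (0.42 ± 0.17) and *Znrf3* (0.38 ± 0.18) had smaller differences with limma adjusted p from 0.2 to 0.265, and the interval of *Znrf3* included 0 (-0.0091 to 0.78). *Axin2* (0.22 ± 0.18; -0.19 to 0.62) and *Smoc2* (0.16 ± 0.24; -0.37 to 0.70) also had intervals that include 0, and in 1 of the 3 groups each had the higher mean in females. A two-sided exact permutation test that moved the sex labels within the 3 groups, run for each of the 10 genes, gave p = 0.00926, the smallest it can give with 108 arrangements, for *Sox9*, *Slc12a2*, *Olfm4*, *Ascl2* and *Rnf43*. This exact test gave p = 0.0185 for *Lgr5*, p = 0.037 for *Znrf3* and *Ephb2*, and p = 0.454 and p = 0.519 for *Axin2* and *Smoc2*; the KO-ND libraries do not enter it.

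**Figure D3:**
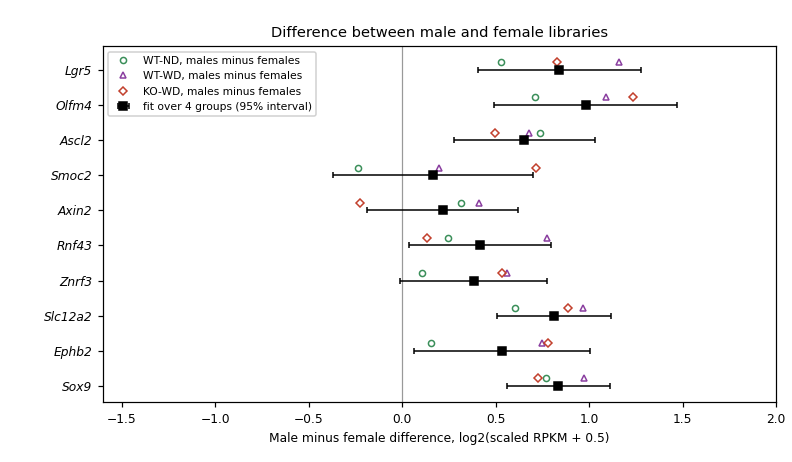
Male minus female difference of log2(scaled RPKM + 0.5) for each of the 10 genes; black squares give the fit over the 4 groups with its 95% interval, and open symbols the difference of means within WT-ND, WT-WD and KO-WD. All squares lie above 0, and all open symbols do except those of *Smoc2* in WT-ND and *Axin2* in KO-WD.

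The call of 2 genes rested on the full set of libraries. *Sox9* kept an adjusted p under 0.05 when WT-ND M1 (0.0386), KO-ND M1 (0.0498), KO-ND M2 (0.0395), WT-WD F1 (0.0351) or KO-WD M1 (0.0476) was left out. It lost it without WT-ND M2 (0.0536), WT-ND F1 (0.0539), WT-ND F2 (0.0578), WT-WD M1 (0.0604), WT-WD M2 (0.0764), WT-WD F2 (0.0513), KO-WD M2 (0.065) or KO-WD F (0.128), all from limma. *Slc12a2* kept it without WT-ND M2 (0.0236), KO-ND M2 (0.0488) or WT-WD F1 (0.0426) and lost it without any of the other 10 libraries (0.0577 to 0.163 from limma, the highest without KO-WD F). The size of the difference moved little, between 0.78 and 0.89 for *Sox9* and between 0.75 and 0.92 for *Slc12a2*. In WT libraries alone it was 0.90 ± 0.16 and 0.81 ± 0.19, with limma adjusted p of 0.173 and 0.217.

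Fitted by diet, 3 of 10 genes passed an adjusted p under 0.05 on the WD, all higher in males, against 3.45% of all tested genes in either direction and 0.856% higher in males. These were *Slc12a2* (0.93 ± 0.17, limma adjusted p = 0.0343), *Sox9* (0.87 ± 0.16, limma adjusted p = 0.0358) and *Lgr5* (1.03 ± 0.24, limma adjusted p = 0.0499). On the ND 0 of 10 passed, against 0.0368% of all tested genes in either direction and 0.0263% higher in males. No difference between the diets passed the test. The change of the male minus female difference from ND to WD ran from -0.16 (*Axin2*) to 0.64 (*Smoc2*) on the log2 scale, with 8 of 10 above 0, and 0 of 10 passed an adjusted p under 0.05 in limma (lowest 0.644; 0% of all tested genes). At an unadjusted p under 0.05, 0 of 10 and 1560 of all tested genes passed.

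Markers of other cells are given beside these values, since in bulk tissue fewer cells of a type and less RNA per cell cannot be told apart. All 14 of 14 proliferation markers had a positive male minus female difference in the same fit (median 0.42 on the log2 scale), with a summed level of 189 to 366 scaled RPKM in males and 156 to 219 in females. On the ND alone 8 of 14 were positive (median 0.06) and on the WD 14 of 14 (median 0.66). All 10 of 10 enterocyte markers were negative (median -0.76; summed level 1617 to 11731 in males and 7914 to 23177 in females), with 5 of 10 negative on the ND (median 0.15) and 10 of 10 on the WD (median -1.35). The 7 fibroblast markers were all positive (median 0.84), but 1 of 7 was on the ND (median -0.09) and 7 of 7 on the WD (median 1.18). The 7 Paneth cell markers were all positive as well (median 0.56), 7 of 7 on the ND (median 1.62) and 4 of 7 on the WD (median 0.30). Adipocyte markers were negative in 5 of 5 (median -1.42; -1.51 on the ND and -1.36 on the WD) and T cell markers in 5 of 6 (median -1.14; -1.26 and -1.06). No gene of these lists passed an adjusted p under 0.05 over both diets, no listed marker was at 0 in every library, and the part of these cell types in the difference was not tested. Depth overlapped between the sexes (7003268 to 10010497 reads in males, 7754576 to 12384197 in females).

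The genes did not form a single block across the 13 libraries. Over the 45 pairs, Pearson's r of the log2 levels had a median of 0.44 and ran from -0.55 (*Smoc2* and *Axin2*) to 0.91 (*Lgr5* and *Slc12a2*), and 42 pairs were above 0. These are descriptions over libraries that share group, sex and scaling. The 3 pairs above 0.8 joined *Lgr5* with *Slc12a2*, *Lgr5* with *Znrf3* (0.85) and *Olfm4* with *Slc12a2* (0.84). *Rnf43* and *Ephb2* were also close (r = 0.78), and these 2 correlated with the summed proliferation markers at 0.78 and 0.63.

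The level of *Smoc2* followed the summed smooth muscle markers (r = 0.91), the markers of enteric glia and neurons (0.91) and the fibroblast markers (0.87), and so, less closely, did that of *Znrf3* (0.59, 0.56 and 0.73), which correlated with *Smoc2* at 0.75. With the fibroblast markers *Lgr5* was at 0.52 and *Ascl2* at 0.54. In contrast, *Sox9* was at -0.06, -0.12 and 0.24 with these lists and *Axin2* was at -0.50, -0.63 and -0.45. The genes most like *Smoc2* over the 13 libraries were *Mrvi1* (r = 0.96, Spearman's rho = 0.92), *Rtn1* (0.95 and 0.88) and *Sv2a* (0.95 and 0.92). *Lgr5* and *Slc12a2* had the same nearest gene, *Cep128* (r = 0.95 and 0.96), and shared *Samd5* (0.93 for both) among their 3 nearest. *Rnf43* was nearest to the predicted gene *Gm6091* (0.92) and to *Cdc20* and *Kpna2* (0.91 and 0.90), and *Ascl2* to *Gm15981* (0.90), *Haus4* (0.88) and *Sox4* (0.87). *Olfm4*, *Lgr5* and *Slc12a2* ran against the adipocyte markers (r of -0.88, -0.71 and -0.80), and *Znrf3*, *Slc12a2*, *Smoc2* and *Lgr5* against the enterocyte markers (-0.79, -0.70, -0.70 and -0.68). With the goblet cell markers *Smoc2* was at -0.81, *Znrf3* at -0.75 and *Lgr5* at -0.64, and with the epithelium markers *Smoc2* was at -0.76.

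**Figure D4:**
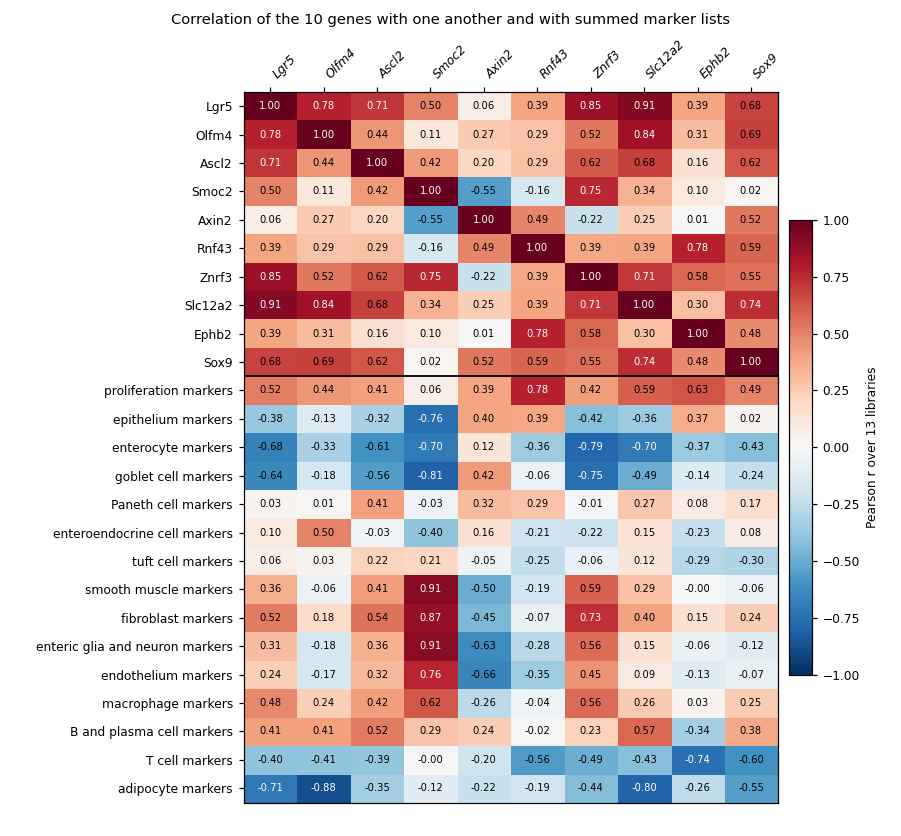
Pearson's r over the 13 libraries between the log2 levels of the 10 genes (upper block) and between each gene and the summed level of 15 marker lists (lower block); red is positive and blue negative. The *Smoc2* column is red for smooth muscle, fibroblast and enteric glia and neuron markers, as is, more faintly, that of *Znrf3*, unlike those of *Olfm4*, *Axin2* and *Sox9*.

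No call was made in the rest of the pathway: no tested gene of the lists below passed an adjusted p under 0.05 in the 5 contrasts of diet and genotype or between the sexes over both diets. For WD against ND in WT some had an unadjusted p under 0.05, namely 5 of 16 genes of the BMP list, 2 of 7 of the TCF complex, and 1 each of the receptors, the other targets and the other stem cell genes. This compares with 2969 of all 19042 tested genes and with 0 of the 10 genes. Of 19 Wnt ligands, 12 were in the table and 8 were tested. Among them *Wnt3*, the ligand that Paneth cells make for the stem cells, was at 3.04 scaled RPKM, with log2 fold changes of -0.05 for WD against ND in WT and 0.68 for KO-ND against WT-ND. *Wnt5a*, a ligand of the mesenchyme, was at 3.11 scaled RPKM (0.69 for WD against ND in WT). Of the R-spondins, which amplify the signal through *Lgr5* and its relatives, *Rspo3* (3.0 scaled RPKM) and *Rspo1* (1.15) were tested, with diet differences of 0.71 and 0.35 in WT.

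Of 17 receptors, 14 were tested. The most abundant were *Ryk* (19.6 scaled RPKM), the coreceptor *Lrp5* (17.5) and the R-spondin receptor *Lgr4* (15.6), which was above *Lgr5*, and their WD against ND differences in WT were 0.07, -0.60 and -0.34. The 5 tested secreted inhibitors had a median diet difference of 0.52 in WT, with *Dkk3* at 0.58 and *Sfrp1* at 0.41. The 11 genes of the destruction complex and its relays had a median of 0.08, and *Ctnnb1*, beta-catenin itself, at 310 scaled RPKM, was at -0.24.

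Of the 9 other targets of the pathway tested, 4 were higher and 5 lower on the WD in WT (median -0.41), with *Ccnd1*, the cyclin of early cell cycle progression, at -0.56 and *Myc*, a growth regulator, at -0.78. Of the 12 tested genes of other crypt base and reserve stem cells, 4 were higher and 8 lower (median -0.10), and the most abundant, *Prss23*, *Igfbp4* and *Prom1*, were at -0.33, -0.01 and -0.13. The 16 tested genes of the BMP pathway, which opposes Wnt signalling towards the villus, had 11 higher and 5 lower (median 0.19, range -1.05 to 1.11), with its target *Id3* at -0.42. Between the sexes the summed level of this list was 281 to 415 scaled RPKM in males and 420 to 476 in females. The sums of the other pathway lists overlapped between the sexes, and the sums were not tested. Of the 14 proliferation markers 4 were higher and 10 lower on the WD in WT (median -0.11), and all 14 were higher in KO-ND than in WT-ND (median 0.48) and in KO-WD than in WT-WD (median 0.26), with *Top2a* at 0.97 and 0.62. These values come from the fit without sex, and KO-ND held males only, so genotype and sex are mixed in them.

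The split of the signal between annotated transcripts varied between libraries, and it is given here for 2 genes picked when the values had been seen. *Olfm4* has 2 transcripts in the table, *Olfm4-201* (1640 bases) and the longer *Olfm4-203* (2801 bases). In WT-ND, *Olfm4-201* made up 46.6%, 33%, 33.1% and 39.1% of the gene's RPKM, and in KO-ND 18.1% and 4.16%. On the WD it made up 17.7% in WT-WD M2 and at most 0.0107% in the other 6 libraries, so that the diets overlapped through WT-WD M2. Its level was thus 3.14 to 69.7 scaled RPKM in the ND libraries and 43.3 in WT-WD M2, and at most 0.0165 in the rest of the WD libraries.

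*Axin2* was split among 5 transcripts. The full-length coding *Axin2-201* made up 59.6% to 78.2% of the gene in the 6 ND libraries and 34.5% to 56.6% in the 7 WD libraries, while the processed transcript *Axin2-203*, which lies at the 3' end of the gene, made up 12.4% to 24.1% and 26.4% to 58.5%. These are the 2 of 24 transcripts of the 10 genes whose shares did not overlap between the diets, against 2.1% of 35766 tested transcripts of genes with more than 1. Both are shares of the same gene, so a fall in *Axin2-201* tends to raise *Axin2-203*, and they are not independent. In a limma fit of all transcripts, added when the values had been seen, 0 of the 25 tested transcripts of the 10 genes passed an adjusted p under 0.05 for WD against ND in WT (0.496% of all transcripts) or in KO (0.0207%). In WT the adjusted p was 0.12 for *Olfm4-201*, 0.201 for *Olfm4-203*, 0.305 for *Axin2-201* and 0.128 for *Axin2-203*. At an unadjusted limma p under 0.05, 7 of the 25 passed in WT and 3 in KO. In WT these were the transcripts just named and *Ephb2-201*, *Ephb2-202* and *Rnf43-202*, at log2 fold changes of -0.73, -0.63 and -0.71. The share of all transcripts at that limit is not given here. The share of a transcript is an estimate where transcripts overlap, and the ND and WD columns also differ in how they were written (above).

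**Figure D5:**
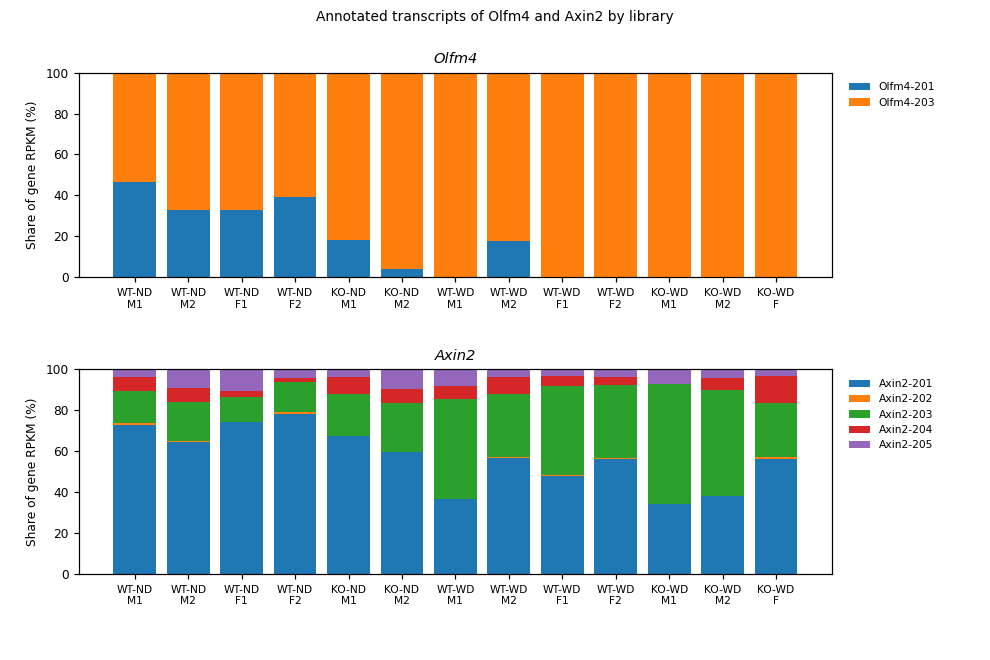
Share of the summed RPKM of *Olfm4* (upper panel) and *Axin2* (lower panel) given by each annotated transcript in the 13 libraries; each bar adds to 100%. *Olfm4-201* is visible in all 6 ND libraries and in 1 of the 7 WD libraries, and the *Axin2-203* share is larger in each WD library than in any ND library.

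The positions of these transcripts on the mouse genome (GRCm38, GENCODE M21) bear on how far a read can tell them apart. *Olfm4-201* spans chr14:80000302-80021930 and *Olfm4-203* chr14:80000251-80023139, on the forward strand. *Axin2-201* spans chr11:108920349-108950783 and *Axin2-203* chr11:108943621-108950783, also on the forward strand, so the whole of *Axin2-203* lies within the span of *Axin2-201* and shares its end. *Ascl2*, at chr7:142966829-142969264 on the reverse strand, has 2 overlapping coding transcripts, and *Ascl2-201* made up 56.1% to 100% of its RPKM.

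RefSeq promoter windows on GRCm38.p6 were given for 5 of the 10 genes, *Ascl2*, *Axin2*, *Ephb2*, *Olfm4* and *Rnf43*, with 2 windows for *Rnf43*, and not for *Lgr5*, *Smoc2*, *Znrf3*, *Slc12a2* and *Sox9*. The 250 bases before the start were searched on both strands for the core letters of TCF and LEF factors, CTTTGA and CTTTGT, which differ in the last letter and so cannot match at the same place. Neither was found in any of the 6 windows; over 32851 windows of that length, 27.6% held at least 1 of them (13.8% CTTTGA and 16.5% CTTTGT). The absence says only that these letters are not in these windows. The 3 windows below belong to the stem cell factor *Ascl2*, the feedback target *Axin2* and the abundant marker *Olfm4* and are shown because the start sites of the transcripts described above lie right after them; no letters are capitalised because no match was found. They are chr7:142969265-142969514 (reverse strand), chr11:108920099-108920348 (forward strand) and chr14:80000052-80000250 (forward strand), the last ending before the start of *Olfm4-203*.
Ascl2: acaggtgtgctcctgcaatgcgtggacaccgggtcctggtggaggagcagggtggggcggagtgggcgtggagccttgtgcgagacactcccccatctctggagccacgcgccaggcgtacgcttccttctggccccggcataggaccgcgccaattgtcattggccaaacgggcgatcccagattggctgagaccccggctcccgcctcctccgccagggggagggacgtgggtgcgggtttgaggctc
Axin2: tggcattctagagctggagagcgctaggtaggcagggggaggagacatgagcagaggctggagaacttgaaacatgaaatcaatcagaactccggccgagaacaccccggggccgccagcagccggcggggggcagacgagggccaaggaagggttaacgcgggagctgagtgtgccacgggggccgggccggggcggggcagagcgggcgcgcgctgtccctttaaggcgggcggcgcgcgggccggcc
Olfm4: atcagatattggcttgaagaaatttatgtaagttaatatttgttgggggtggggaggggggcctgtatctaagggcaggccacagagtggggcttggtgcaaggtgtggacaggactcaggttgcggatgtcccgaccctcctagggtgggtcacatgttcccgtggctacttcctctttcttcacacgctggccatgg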

How the data were processed

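For this series the authors sequenced RNA of the mouse terminal ileum with an Ion Proton instrument. They mapped the reads to the mouse genome (GRCm38, named mm10 in the submitters' processing notes) in Partek Flow and quantified annotated transcripts. The deposited values are RPKM per transcript, made by the authors from reads, transcript length and a library total; which total was used is not given in the sources used here, and the columns sum to different totals by diet. Transcripts were matched to GENCODE M21 (98.2% matched). Within a library, RPKM multiplied by length fell on whole multiples of a constant in 84.3% to 87.9% of the values compared (tolerance 0.02 reads), which gives the implied reads.

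Transcript values were summed per gene over 59258 transcripts. The KO-ND female columns equal weighted means of the male columns except in 17 and 18 transcripts and were left out; the KO-WD female columns were averaged. A gene was tested if 2 or more of the 13 libraries reached an RPKM of 1. Scale factors came from trimmed log ratios between libraries (30% of ratios and 5% of levels trimmed at each end; range 0.691 to 1.36). The model was fitted to log2(scaled RPKM + 0.5) using R 4.3.3 and its package limma 3.58.1, allowing for a mean-variance trend, with all 4 groups in 1 model and Benjamini-Hochberg adjustment over all genes. Fold changes are on that scale and understate changes of low genes. Exact permutation tests used the same log2 values. Permutations and correlations ran in Python 3.11.15 (scipy 1.17.1, pandas 2.3.3, numpy 2.4.6). The fit was tested on simulated data.

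The 10 genes and the gene lists were chosen with earlier results of these data known. Named genes are the 10 genes; of each pathway list those of highest mean RPKM, of which some are printed; and for likeness the 3 genes of highest Pearson's r. The alternatives were other scalings, pseudocounts, filters, gene values and call rules, sex or replicate number in the fit, subsets of libraries, and all 16 columns as labelled; females only, WT only, limma-voom on implied reads, the sex comparison and the transcript fit were added when the values had been seen.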

Additional observations from a re-analysis of the deposited data

How the results depend on the processing

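In the 5 contrasts of diet and genotype, 0 of the 10 genes were called under every alternative run. Of 1505 single values of the genes under alternatives, 0 had an adjusted p under 0.05 (lowest 0.0543, *Ephb2* for WD against ND in WT as deposited), 19 changed sign by more than the standard error, and the other 1486 kept their direction or changed sign by less than that. The cause of the changes below was not tested.

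For WD against ND in WT, where 1 gene of all tested was called, the count was 539 as deposited, 3 with sex in the fit, 33 with all 16 columns as labelled, 4 with the most abundant transcript of each gene, 12 at an adjusted p under 0.05, 0 in males only, in females only or with limma-voom on implied reads, and 1 to 3 when 1 library was left out. As deposited, the log2 fold change became -0.011 for *Lgr5*, -0.23 for *Ascl2*, -0.20 for *Smoc2*, -0.29 for *Znrf3* and -0.11 for *Slc12a2*. In females only, *Smoc2* was at -0.015 and *Znrf3* at -0.21, with the most abundant transcript *Znrf3* was at -0.18, and leaving out 1 library moved *Axin2* between -0.23 and 0.13. For WD against ND in KO, 0 genes were called and the count was 1 with upper quartile scaling, with a mean RPKM of at least 5 or at an adjusted p under 0.05, 18 with all 16 columns, and 0 to 1 when 1 library was left out. *Axin2* was at -0.32 as deposited and -0.48 with the most abundant transcript.

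For KO-ND against WT-ND, 0 genes were called and 1 was with a pseudocount of 0.1, all 16 columns, no mean-variance trend, limma-voom or an adjusted p under 0.05. With the most abundant transcript *Olfm4* was at 0.43 and *Rnf43* at -0.12, and with sex in the fit *Slc12a2* was at -0.21. For KO-WD against WT-WD, 2 genes were called, and the count was 4 as deposited, 6 with all 16 columns, 5 at an adjusted p under 0.05, 1 with a mean RPKM of at least 5, the 2 groups alone or the most abundant transcript, 0 in males only, in females only or without transcripts of more than 6 digits, and 1 to 3 when 1 library was left out. In males only *Axin2* was at -0.069 and *Rnf43* at -0.024, and leaving out 1 library moved *Olfm4* between -0.60 and 0.16. The interaction of *Rnf43* was 0.50 with the most abundant transcript.

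Between the sexes, 97 genes were called, and the count was 285 as deposited, 210 with upper quartile scaling, 404 with a mean RPKM of at least 5, 33 with the most abundant transcript, 9 in WT only, 38 with limma-voom, and 7 (without KO-WD F) to 179 (without WT-WD F1) when 1 library was left out. The 2 genes called among the 10 became 1 with the most abundant transcript, 0 in WT only, and 0 to 2 when 1 library was left out. The highest count under any alternative was 3. *Olfm4* passed an adjusted p under 0.05 in 3 of its 26 alternatives (lowest limma adjusted p 0.0382). *Axin2* was at -0.037 with the most abundant transcript. The sex by diet interaction called 0 genes, and 0 to 1 when 1 library was left out. The sex fits were not run on all 16 columns.

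Libraries of the same name (M1, M2, F1, F2) in different groups were not shown to be paired: the correlation of their deviations ran from -0.15 to 0.57 over 14 pairs, with 7 over 0.1, although 10 of 12 libraries correlated best with their own name. With a replicate block for that name, 2 genes were called for WD against ND in WT, *Slc12a2* was at -0.21 for KO-ND against WT-ND, and 0 of the 10 genes were called. *Ascl2*, with 35 to 123 reads a library, and *Znrf3*, with 56 to 174, are the genes most limited by depth.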
